A study of Macaca radiata with 4 samples.

Results

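The genes described are CISH, SOCS1, SOCS2, SOCS3, PRLR, JAK2, STAT3, STAT5A and STAT5B, which encode the prolactin receptor, the kinase and the transcription factors that act below it, and the inhibitors that switch this route off. They were measured in the corpus luteum of the bonnet monkey (Macaca radiata), a tissue formed from the ovulated follicle, on Affymetrix rhesus macaque arrays. Every probe set annotated with 1 of these 9 symbols and no other was taken, which gave 23 of the 52865 probe sets on the array, or 9 of the 14132 genes with a probe set of their own. The genes were selected on their measured signals, log2(signal + 16) with rhLH against each PBS array, so their differences between the groups are given as a description, without a test.

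Both groups were female monkeys given 150 µg/kg of CET on luteal phase day 7 to suppress their endogenous LH. The rhLH group (replicates 3 and 4) was then injected intravenously with rhLH at 20 IU/kg 24 h after CET. The PBS group (replicates 1 and 2) received 0.5 ml of PBS at the same time, and corpora lutea were collected 8 h later. CET was common to both groups, so the comparison asked what LH replacement did after LH withdrawal, and no corpus luteum without CET was analysed here. The labels do not tie an array to an animal, so any p-value covers only the spread among these arrays, which may be partly technical.

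The prolactin receptor is a cytokine receptor without enzymatic activity of its own. It works through the bound kinase JAK2, which phosphorylates STAT5A and STAT5B, and these then enter the nucleus and activate transcription. CISH and the SOCS genes are classical STAT targets whose products bind the receptor or the kinase and stop the signal, forming a negative feedback loop. Prolactin maintains the corpus luteum in rodents, whereas in primates LH and chorionic gonadotropin have that role. STAT3 is activated mainly by receptors of the interleukin 6 family, and SOCS3 is its best known feedback inhibitor.

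On the 2 probe sets of CISH, the lower rhLH array exceeded the higher PBS array, with group differences of 2.23-fold and 2.54-fold. The single SOCS2 probe set was separated in the same way, at 1.66-fold. Such an upward separation was found on 14.4% of all kept probe sets. CISH and SOCS2 were selected on these signals, so that share does not test them. The receptor gene PRLR, the kinase gene JAK2 and SOCS1 had negative differences on 11 of their 13 probe sets, and 8 of these 11 were negative against both PBS arrays. On 10 of the 11 the difference was larger against PBS replicate 1 than against PBS replicate 2. Like shares over all kept probe sets were not counted, but PBS replicate 1 had the lowest or the highest signal on 79.7% of them. Both rhLH arrays lay below both PBS arrays on 5 of the 13, probe sets below the filter included. Among all kept probe sets, of either sign, 17.7% did so. PRLR, JAK2 and SOCS1 are grouped here by their sign, so the 5 of 13 and the 17.7% are not a like comparison. STAT5B, on its brightest probe set, had nearly the same signal on all 4 arrays. STAT3 was higher with rhLH than on PBS replicate 1 and level with PBS replicate 2, and SOCS3 lay between the PBS arrays.

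The arrays were not alike. PBS replicate 1 had Pearson correlations of 0.752 to 0.780 with the other 3 arrays across 31659 kept probe sets, against 0.940 to 0.947 among those 3. A probe set counts as kept where its mean log2(signal + 16) exceeded the 40th percentile of all probe sets, which corresponds to a signal of 90.7. Granulosa-lutein cells are among the steroid-producing cells of this tissue. Their 5 matched markers had summed signals of 55095 and 61566 on the rhLH arrays, against 12330 and 56332 on PBS replicates 1 and 2, and none was at 0. PBS replicate 1 was therefore also the array with the lowest summed signal of these markers. The sum was mostly INHA, at 7756 on PBS replicate 1 and 44827 on PBS replicate 2. HSD17B1 was lower on PBS replicate 2 (51.4) than on PBS replicate 1 (67.1), while the other markers were each lowest on PBS replicate 1. In whole tissue, fewer cells of a type and less RNA per cell cannot be told apart. Over all probe sets, PBS replicate 1 also had a higher median signal, 186.4 against 135.6 to 139.5 on the other arrays. Its 99th percentile was lower, at 8886 against 12091 to 12459. Whether its low marker sum came from the tissue or from the array was not tested. All log2 differences are rhLH minus PBS on the log2(signal + 16) scale. Standard errors are those of limma's fit.

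Of the 23 probe sets, 19 passed the filter, and they covered 8 of the 9 genes. On 3 of the 19 both rhLH arrays lay above both PBS arrays, and on 5 they lay below, where 14.4% and 17.7% of all kept probe sets did so. The median difference of the 19 was −0.28, against −0.04 over all kept probe sets. None differed at least 2-fold between every rhLH array and every PBS array, a rule met upward by 0.344% and downward by 0.490% of kept probe sets. Limma called 0% of the kept probe sets at an adjusted p of 0.05 (smallest adjusted p = 0.919), with 641 of the 31659 at an unadjusted p under 0.05. PBS replicate 1 had the lowest or the highest signal on 14 of the 19 (73.7%), against 79.7% of all kept probe sets.

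CISH encodes the cytokine-inducible SH2 protein, which binds phosphorylated sites on receptors such as the prolactin and growth hormone receptors and blocks access of STAT5. Its brighter probe set, MmugDNA.521.1.S1_s_at, showed signals of 2019 and 1708 on rhLH replicates 3 and 4, against 731 and 924 on PBS replicates 1 and 2. The groups did not overlap, and the lowest rhLH value exceeded the highest PBS value by 0.87 on the log2 scale. The means were 1864 ± 220 with rhLH and 828 ± 137 with PBS (SD, n = 2 each), a log2 difference of 1.16 (SE 0.33). The second probe set, MmuSTS.3417.1.S1_at, showed signals of 1692 and 1423 with rhLH, against 461 and 780 with PBS. It gave the same order of the 4 arrays as the first, with PBS replicate 1 lowest and rhLH replicate 3 highest, and a log2 difference of 1.35 (SE 0.39).

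The CISH difference was present against either PBS array. It was 1.33 against PBS replicate 1 and 0.99 relative to PBS replicate 2 on the first probe set, and 1.72 and 0.98 on the second. The difference against PBS replicate 2 alone is the value without the array that stood apart. Of the 31659 kept probe sets, 1201 had a larger positive difference than the brighter CISH probe set, and 162 had a wider gap between the lowest rhLH and the highest PBS array. Of 4433 genes with at least 2 kept probe sets, 3.38% had both rhLH arrays above both PBS arrays on every one, as CISH had. CISH has only 2, and genes with more meet this less easily. These counts describe CISH and do not test it, because it was selected on the same contrast.

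SOCS2 is the SOCS protein that limits growth hormone signalling in mice, and it can also bind the prolactin receptor. Its probe set showed signals of 1069 and 1251 with rhLH, against 528 and 903 with PBS. Both rhLH arrays were higher than both PBS arrays, but PBS replicate 2 lay close to rhLH replicate 3. The means were 1160.1 ± 128 with rhLH and 716 ± 265 with PBS (SD, n = 2 each). The log2 difference was 0.73 (SE 0.40), composed of 1.11 against PBS replicate 1 and 0.35 relative to PBS replicate 2. The name of this probe set and of the brighter CISH one ends in _s_at, the Affymetrix suffix for probes that can match more than 1 transcript.

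SOCS3 encodes the inhibitor that acts on receptors with the shared subunit gp130 and on JAK kinases. Its single probe set was close to the filter level, with signals of 86.4 and 133 with rhLH, against 161 and 48.0 with PBS. Both rhLH arrays lay between the 2 PBS arrays. The log2 difference of 0.22 (SE 0.74) was composed of −0.52 and 0.95 against PBS replicates 1 and 2, so it had no common direction.

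SOCS1, an inhibitor that binds JAK kinases directly and restrains interferon signalling, had 5 probe sets, of which 2 were kept. On the brighter one, MmugDNA.31600.1.S1_at, the signals were 155 and 229 with rhLH, against 858 and 144 with PBS. PBS replicate 1 alone was high, and the difference of −0.87 (SE 0.85) was −2.09 against that array and 0.35 against PBS replicate 2. On the other kept probe set, MmugDNA.20249.1.S1_at, the signals were 255 and 180 with rhLH, against 299 and 257 with PBS. The groups were separate there, but rhLH replicate 3 and PBS replicate 2 were almost equal, and the difference was −0.35 (SE 0.47), or −0.45 against PBS replicate 1 and −0.24 relative to PBS replicate 2. Of the 3 probe sets below the filter, MmugDNA.42159.1.S1_at showed signals of 23.8 and 37.9 with rhLH, against 321 and 42.7 with PBS, again with PBS replicate 1 alone high (log2 −1.60). The 2 that share the name root MmugDNA.24297.1.S1 had differences of 0.70 and −0.08. Over all 5, PBS replicate 1 was the highest array on 4, and the differences ran from −1.60 to 0.70.

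**Figure D1:**
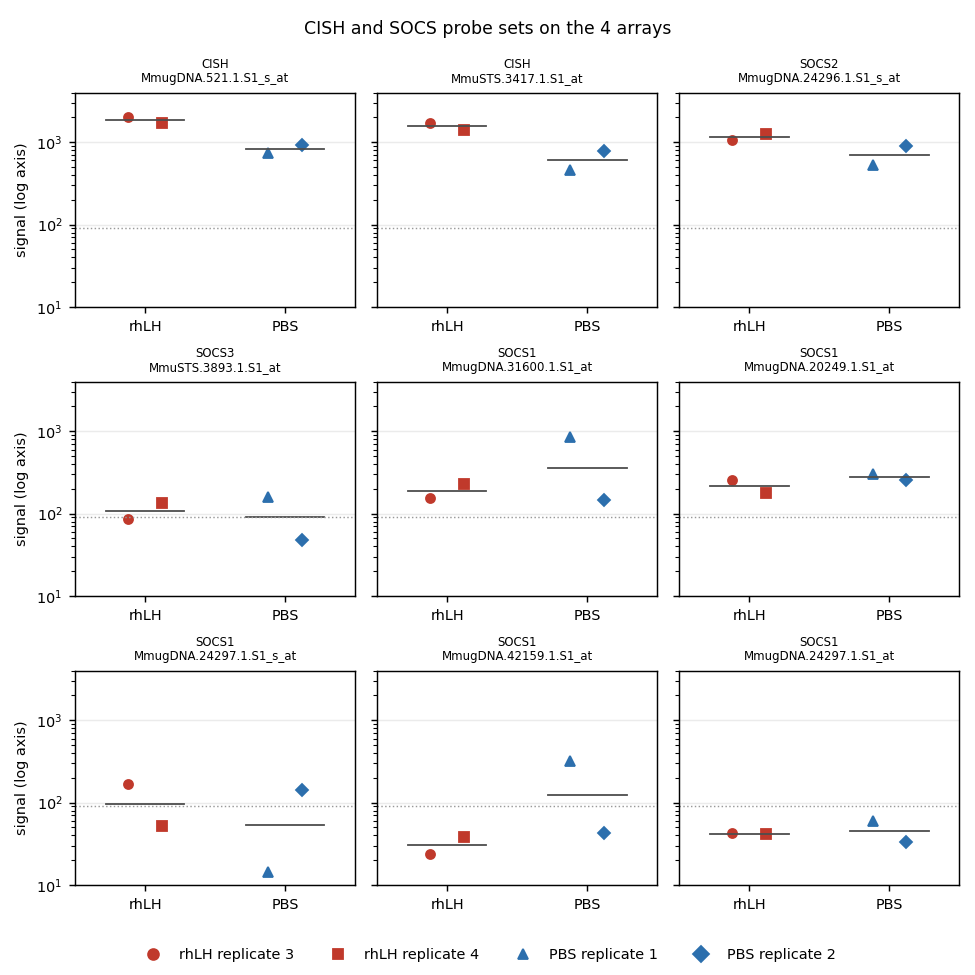
Signals of the 9 CISH and SOCS probe sets (log axis) on the rhLH and PBS arrays, 1 symbol per array, with a bar at each group's mean of log2(signal + 16) put back on the signal scale and a dotted line at the filter level of 90.7. Both CISH probe sets and that of SOCS2 have both rhLH arrays above both PBS arrays, and on MmugDNA.31600.1.S1_at of SOCS1 the array that stands apart is PBS replicate 1.

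PRLR, the prolactin receptor gene, had 5 probe sets, all kept. The brightest, MmugDNA.12451.1.S1_at, showed signals of 386 and 910 on rhLH replicates 3 and 4, against 883 and 746 with PBS. The 2 rhLH arrays enclosed both PBS arrays, and the log2 difference was −0.44 (SE 0.49), or −0.56 against PBS replicate 1 and −0.32 relative to PBS replicate 2. MmugDNA.23451.1.S1_at showed signals of 287 and 491 with rhLH, against 1214 and 531 with PBS. It was the 1 PRLR probe set of 5 on which the groups did not overlap, with a difference of −1.07 (SE 0.54), composed of −1.65 against PBS replicate 1 and −0.48 relative to PBS replicate 2. PBS replicate 1 was far above the other 3 arrays there.

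The other 3 PRLR probe sets overlapped between the groups. On MmugDNA.618.1.S1_at the signals were 343 and 635 with rhLH, against 988 and 526 with PBS (log2 −0.61, SE 0.50). On MmugDNA.22173.1.S1_at they were 233 and 738 with rhLH, against 1270.4 and 507 with PBS (log2 −0.92, SE 0.70). On MmugDNA.2102.1.S1_at they were 296 and 734 with rhLH, against 412 and 446 with PBS (log2 0.12, SE 0.53). In each of them rhLH replicate 4 exceeded PBS replicate 2 and rhLH replicate 3 did not. In the same order, their differences from PBS replicate 1 were −1.05, −1.57 and 0.18, and those from PBS replicate 2 were −0.17, −0.27 and 0.07.

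The 5 PRLR probe sets were alike in the order of the rhLH arrays. Replicate 3 was the lowest of the 4 arrays on all 5, and replicate 4 exceeded it by 0.74 to 1.60 on the log2 scale. Over all kept probe sets the median absolute gap between these 2 arrays was 0.29, and 90% of gaps were at most 0.92. The rhLH gap of each PRLR probe set was wider than that of 84.8% to 97.7% of kept probe sets. On 4 of the 5 the gap between the 2 rhLH arrays was larger than the difference between the groups. Without rhLH replicate 3 the brightest probe set had a difference of 0.16, against −1.04 without rhLH replicate 4. PBS replicate 1 was the highest array on 3 of the 5. All 5 probe sets are annotated to 1 gene, so they are not separate measurements of the corpora lutea.

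JAK2, the kinase bound to the prolactin and growth hormone receptors, had 3 kept probe sets with differences of −0.85 (SE 0.45), −0.28 (SE 0.50) and −0.50 (SE 0.40). On MmugDNA.15589.1.S1_at the signals were 520 and 640 with rhLH, against 741 and 1494 with PBS. On MmugDNA.97.1.S1_at they were 430 and 473 with rhLH, against 791 and 521 with PBS. The groups were separate on both, but PBS replicate 2 was the highest array on the first and PBS replicate 1 on the second. On the third, MmuSTS.737.1.S1_at, the signals of 760 and 553 with rhLH lay between those of 1191 and 520 with PBS. The first had a larger difference from PBS replicate 2 (−1.35) than from PBS replicate 1 (−0.35). The second stood at −0.79 and −0.20 against PBS replicates 1 and 2, and the third at −0.86 and 0.31, with opposite signs.

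STAT5B, one of the main transcription factors below the prolactin receptor, had 4 kept probe sets. On the brightest, MmugDNA.18169.1.S1_at, signals were 661 and 725 with rhLH, against 656 and 694 with PBS. The 4 arrays lay close together and the groups overlapped, with a log2 difference of 0.04 (SE 0.34). Its other probe sets had differences of −0.08, −0.41 and 0.09. On the one at −0.41, MmugDNA.18168.1.S1_at, both rhLH arrays (175 and 147) lay below both PBS arrays (188 and 251). On the one at 0.09, the PBS signals of 58.9 and 376 lay on either side of the rhLH signals of 140 and 198.

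STAT5A had 1 probe set, which did not pass the filter. Its signals were 123 and 64.6 with rhLH, against 45.6 and 40.6 with PBS. Only rhLH replicate 3 lay above the filter level of 90.7, and the log2 difference of 0.84 ran from 0.53 to 1.03 with the pseudocount. It was 0.45 without rhLH replicate 3 and 1.23 without rhLH replicate 4. STAT3, the factor activated by receptors that signal through gp130, showed signals of 546 and 454 with rhLH, against 145 and 507 with PBS. PBS replicate 2 lay between the rhLH arrays, and the difference of 0.82 (SE 0.64) was 1.68 against PBS replicate 1 and −0.03 relative to PBS replicate 2.

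**Figure D2:**
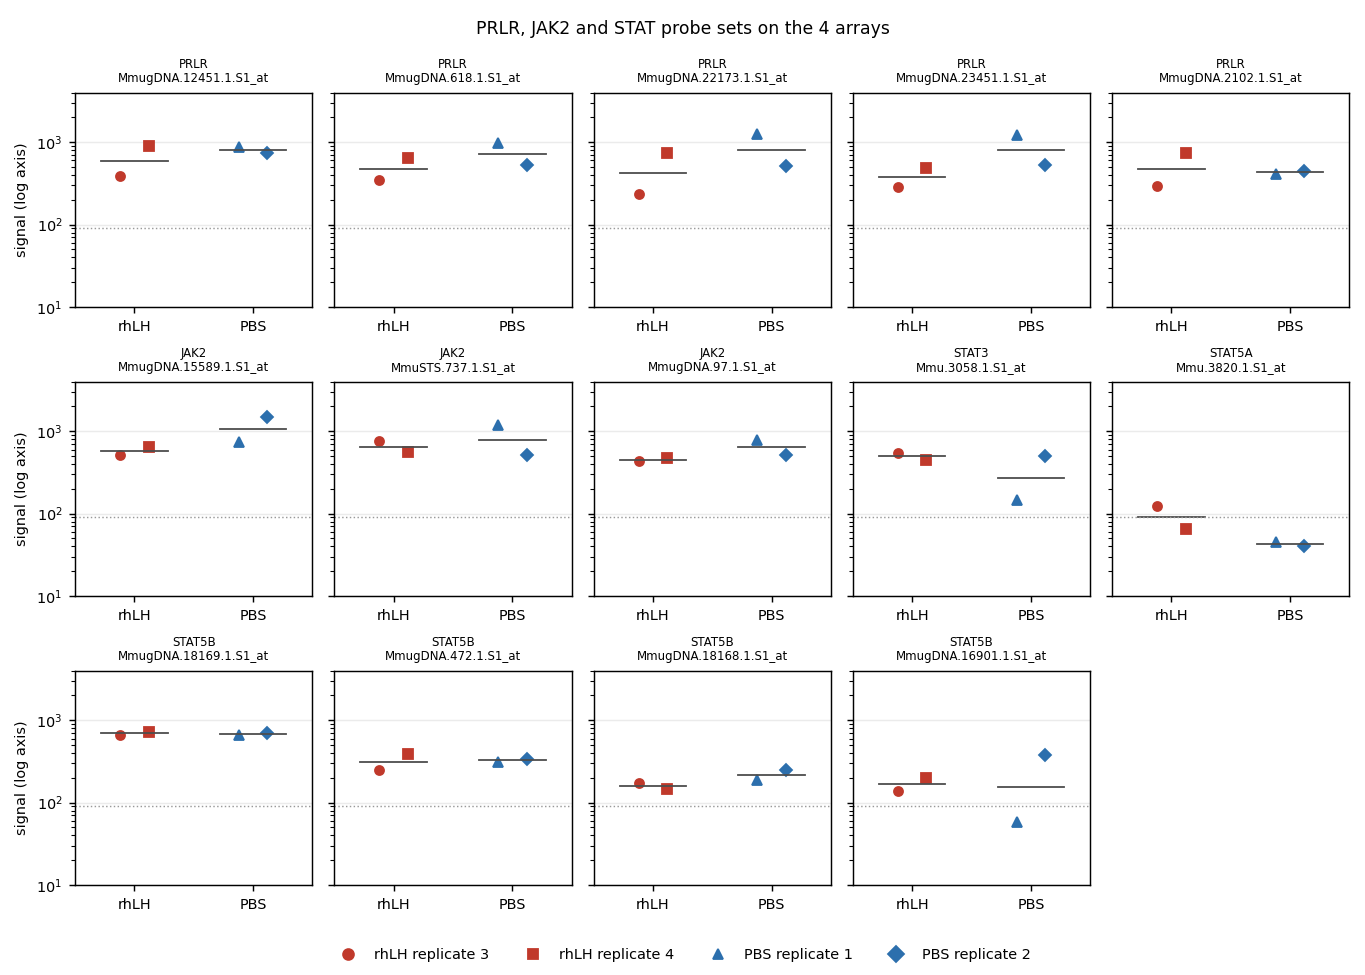
Signals of the 14 PRLR, JAK2 and STAT probe sets (log axis) on the rhLH and PBS arrays, with symbols, bars and dotted line as for the CISH and SOCS probe sets. On all 5 PRLR probe sets rhLH replicate 3 is the lowest array, while MmugDNA.18169.1.S1_at of STAT5B is nearly level over the 4 arrays.

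Taken by the brightest kept probe set, the 8 genes had a median difference of 0.13, against 0.02 over 10998 kept genes. For CISH and SOCS2 both rhLH arrays lay above both PBS arrays, and for JAK2 both lay below, where 16.3% and 16.1% of kept genes did so. With the median over a gene's probe sets in place of the brightest, JAK2 stood at −0.25 and its groups overlapped, which left 0 genes below. Of the 23 probe sets, 8 took opposite signs against the 2 PBS arrays, among them STAT3 and the brightest of SOCS1, SOCS3 and STAT5B, the last with values of 0.08 and −0.00.

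**Figure D3:**
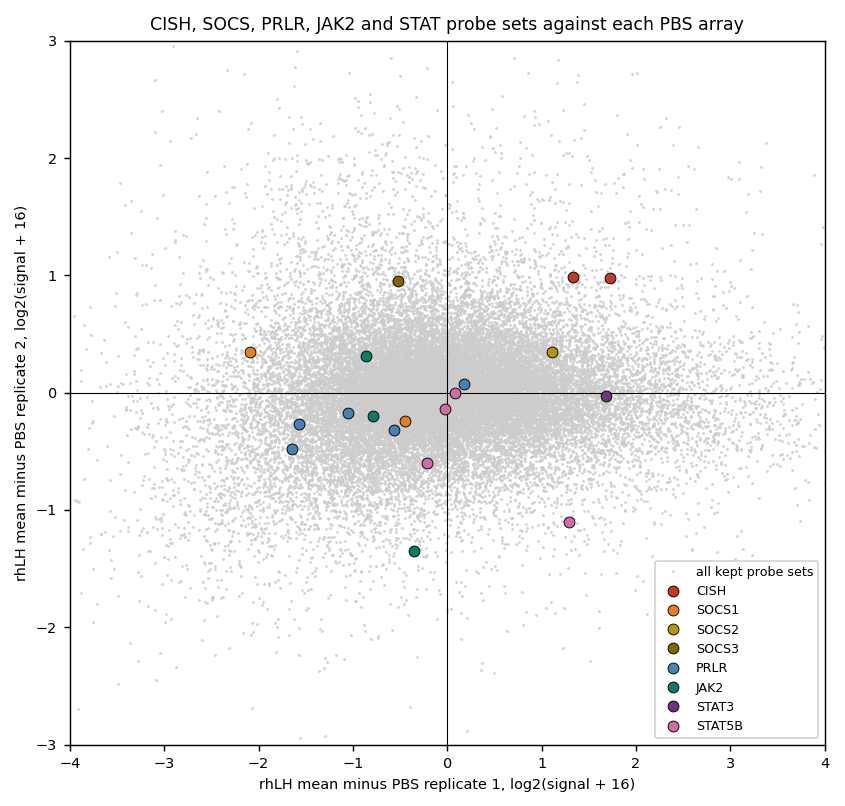
Log2 difference of the rhLH mean from PBS replicate 1 (horizontal) and from PBS replicate 2 (vertical) for all 31659 kept probe sets (grey) and the 19 kept probe sets of the genes described (coloured). Both CISH probe sets lie near 1 on the vertical axis, at 0.99 and 0.98, while STAT3 lies at −0.03 there; 103 kept probe sets fall outside the axes.

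Genes with a pattern like that of CISH were sought by the Euclidean distance between log2 values on the 4 arrays, each gene centred on its own mean. The 5 nearest of 10997 genes were GPR152, an orphan receptor (distance 0.124), FGL2, a fibrinogen-like protein (0.146), GFPT2, an enzyme at the start of hexosamine synthesis (0.171), RNGTT, the mRNA capping enzyme (0.220), and BASP1, a membrane-associated protein (0.222). GFPT2 showed signals of 5479 and 4131 with rhLH, against 1759 and 2504 with PBS. BASP1 showed signals of 8764 and 8404 with rhLH, against 3985 and 4460 with PBS. In both, as in CISH, PBS replicate 1 was lowest and rhLH replicate 3 highest. SOCS2 stood at a distance of 0.62, with 290 genes nearer to CISH than it was. With only 4 arrays, such a likeness describes these arrays alone.

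Other genes of the pathway or of luteal function were taken from 6 lists with 112 different genes, of which 84 were matched to the array and 70 were kept. In 15 of the 70 both rhLH arrays lay above both PBS arrays, and in 13 they lay below, where 16.3% and 16.1% of all kept genes did so. The list of prolactin-related luteal genes supplied 5 of the 15 and 0 of the 13. It holds genes of steroid synthesis and others, such as INHA and ESR2, rather than parts of the signalling route. Limma called none of the 70 after adjustment over all kept probe sets. An unadjusted limma p under 0.05 was found for 3 of the 70, against 209 of all 10998 kept genes. Their median difference was 0.09, against 0.02 over all kept genes.

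Of the 16 kept receptor genes, 3 lay above and 3 below, with a median of 0.19. That median was 0.00 without PBS replicate 1 and −0.08 without rhLH replicate 3. IL6ST, which encodes gp130, showed signals of 1299 and 3138 with rhLH, against 231 and 1811 with PBS. PBS replicate 2 lay between the rhLH arrays, and the difference of 1.60 (SE 0.97) was 3.04 against PBS replicate 1 and 0.16 relative to PBS replicate 2. STAT3 was likewise low on PBS replicate 1 alone, and that array was the lowest on 35.7% of all kept probe sets. GHR, the growth hormone receptor gene, showed signals of 193 and 244 with rhLH, against 618 and 274 with PBS (log2 −0.88, SE 0.54). Its difference was −1.44 against PBS replicate 1 and −0.31 relative to PBS replicate 2. IL11RA, the interleukin 11 receptor subunit, had differences of 0.57 (SE 0.37) on the brightest probe set and −1.05 (SE 0.71) on another.

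The 9 kept ligand genes had a median of −0.05, with 0 above and 1 below, and the median was 0.06 without PBS replicate 1 and 0.16 with quantile normalization. The one below was IL6, at −2.07 (SE 0.88), with both rhLH signals (26.1 and 84.0) under the filter level, against 524 and 121 with PBS. It stood at −3.06 against PBS replicate 1 and −1.08 relative to PBS replicate 2. The second IL6 probe set, MmuSTS.4354.1.S1_at, was below the filter and overlapped between the groups at −0.52, with signals of 9.48 and 69.5 with rhLH, against 74.6 and 33.5 with PBS. The cytokine genes CLCF1 (0.47, SE 0.63) and CSF3 (0.44, SE 0.69) overlapped between the groups. The probe set of PRL, the prolactin gene itself, did not pass the filter. Of other JAK and STAT genes 3 were kept, with a median of 0.15 (−0.26 without PBS replicate 1), and none separated the groups on its brightest kept probe set: TYK2 differed by 0.57 (SE 0.90), STAT6 by 0.15 (SE 0.38) and STAT2 by 0.11 (SE 0.47). A second TYK2 probe set, MmuSTS.1587.1.S1_at, was below the filter and stood at −0.63, with both rhLH arrays (71.6 and 60.4) below both PBS arrays (96.1 and 126).

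Among 19 kept inhibitors and adaptors, 4 lay above and 6 below, with a median of −0.16. That median was 0.01 without PBS replicate 1, −0.05 with each array centred and −0.02 with the median over a gene's probe sets. PTPN1, the phosphatase PTP1B that removes phosphate from JAK2, showed signals of 768 and 827 with rhLH, against 1215 and 1140 with PBS. The groups were well apart, with differences of −0.60 and −0.51 against PBS replicates 1 and 2 (pooled −0.55, SE 0.32). A second PTPN1 probe set, below the filter, stood at −1.16. SH2B2, an adaptor that binds JAK2, differed by −0.92 (SE 0.63), and its signal on rhLH replicate 4 (49.0) was below the filter level. STAM, an adaptor of cytokine receptor trafficking, differed by −0.43 (SE 0.34). SOCS5, the only further SOCS gene kept, had a difference of −0.26 and overlapped between the groups.

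The 15 kept STAT target genes had a median of −0.06, with 3 above and 3 below, and the median moved to −0.38 when PBS replicate 1 was left out and to 0.13 when PBS replicate 2 was. ODC1, the rate-limiting enzyme of polyamine synthesis, showed signals of 2714 and 3940 with rhLH, against 1540 and 1753 with PBS (log2 0.99, SE 0.34). It differed by 1.08 and 0.89 from PBS replicates 1 and 2, nearly alike. MYC, the growth regulator, showed signals of 582 and 630 with rhLH, against 909 and 1614 with PBS (log2 −0.98, SE 0.40). It differed by −0.57 and −1.39 from PBS replicates 1 and 2. TBX3, a transcription factor, differed by −0.77 (SE 0.41), and its 2 further kept probe sets stood at 0.01 and −0.62. BCL2L1, which encodes the survival protein BCL-XL, and the growth factor gene IGF1 were the other genes above, at 0.90 and 0.46, and BCL6, a repressor that STAT5 is known to silence, was the other gene below, at −0.55.

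Of the 8 kept genes linked to prolactin or to luteal function, 5 lay above and 0 below, where 16.3% and 16.1% of all kept genes did so. Their median was 0.75, composed of 1.16 against PBS replicate 1 and 0.43 relative to PBS replicate 2. HSD17B7, first described in rodents as a protein associated with the prolactin receptor and an enzyme of estradiol and cholesterol synthesis, showed signals of 5905 and 3759 with rhLH, against 2015 and 2412 with PBS. All 3 of its probe sets lay above both PBS arrays, with differences of 1.09, 1.74 and 0.20. CYP19A1, the aromatase, showed signals of 12670 and 20847 with rhLH, against 1885 and 7431 with PBS. ESR2, an estrogen receptor gene, differed by 1.04 (SE 0.62) and was below the filter level on PBS replicate 1 (58.4). Its 2 further probe sets, both below the filter, stood at −0.20 and −0.04 and overlapped between the groups. The granulosa-lutein marker sum given above moved with this list on PBS replicate 1, and CYP19A1 and INHA are in both lists. Its part in the list's median was not tested.

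**Figure D4:**
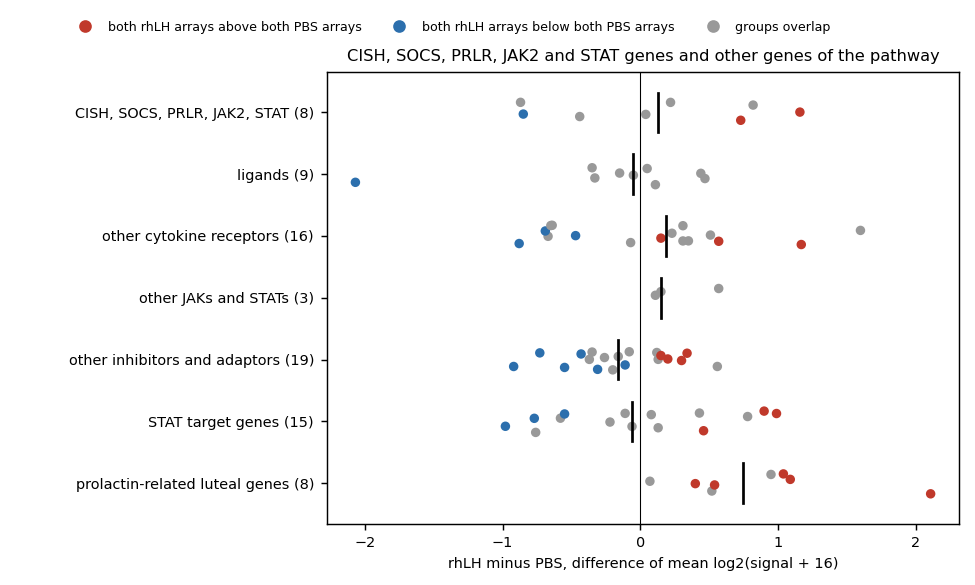
Log2 difference (rhLH minus PBS) of each kept gene, by its brightest kept probe set, for the genes described (top) and the 6 lists of other pathway or luteal genes, with the number of genes in brackets, a black bar at the median, and colour for whether both rhLH arrays lie above or below both PBS arrays. The medians run from −0.16 for inhibitors and adaptors to 0.75 for the prolactin-related luteal genes, and that of inhibitors and adaptors is 0.01 without PBS replicate 1.

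Immune cells, which also use these cytokine routes, were followed by their markers. The 2 kept T and NK cell markers had summed signals of 15897 and 16101 with rhLH, against 4572 and 11009 with PBS. This sum was mostly GZMB, the protease granzyme B, whereas CD8A showed signals of 133 and 50.7 with rhLH, against 90.8 and 118 with PBS. The 3 kept macrophage markers had sums of 4760 and 2820 with rhLH, against 1802 and 3371 with PBS, and the 3 neutrophil markers sums of 611 and 567, against 382 and 705. Endothelial markers (6 kept) summed to 17064 and 18867 with rhLH, against 15804 and 19940 with PBS, and fibroblast markers (3 kept) to 35622 and 37821, against 20916 and 41928. The sums were 8702 and 7880 with rhLH, against 4532 and 7069 with PBS, for 2 pericyte and smooth muscle markers, 2296 and 5336 against 1715 and 6687 for 1 theca marker, and 996 and 1235 against 1123 and 899 for 2 erythrocyte markers. None of the kept markers was at 0. The T and NK cell sum and the pericyte and smooth muscle sum both had both rhLH arrays above both PBS arrays, as CISH had, and the pericyte and smooth muscle sum had the array order of CISH. Of its 2 markers, the actin-binding protein gene TAGLN showed signals of 6118 and 6561 with rhLH, against 2668 and 2568 with PBS. The other marker, MYH11, overlapped between the groups at −0.65, with signals of 2584 and 1318 with rhLH, against 1865 and 4501 with PBS. Neither marker alone had the array order of CISH. TAGLN met the 2-fold rule. It was not among the 5 genes nearest to CISH: its distance was 0.381, and HSD17B7 of the prolactin-related list was nearer, at 0.303. The part of either sum in the CISH difference was not tested.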

How the data were processed

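The deposited values are probe set intensities on a linear scale, MAS5 signals per the submitters' processing notes. The sources used here do not give the scaling target, the detection calls or any filter. The 2% trimmed means of the 4 arrays were equal to within rounding, so log2(signal + 16) was used without further normalization. Of 52865 probe sets, 99 controls were set aside and 31659 above the 40th percentile were kept. Symbols came from the platform annotation (24956 probe sets with 1 symbol, 361 with several, 27449 with none), and the brightest of a gene's kept probe sets stood for it. No genome or sequence was used.

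The test across all kept probe sets was limma 3.58.1 (R 4.3.3), two-sided, with a trended eBayes prior and Benjamini-Hochberg adjustment at a threshold of 0.05. It was checked on simulated data with the same spread on all 4 arrays. The median absolute log2 gap was 0.74 between the PBS arrays and 0.29 between the rhLH arrays, so that check does not cover an array that stands apart. The number of arrays, 2 per group, limits the precision. The genes described and the lists were chosen with earlier results of these data known. From each list the text names genes that passed or, failing that, the 3 of smallest limma p, and the 5 genes nearest to CISH. SOCS5, BCL2L1, IGF1, BCL6, PRL, GZMB, CD8A, TAGLN, MYH11, HSD17B1 and INHA were named after their values were seen. Alternatives covered normalization, pseudocount, filter, variance prior, array weights, the probe set per gene and leaving out each array.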

Additional observations from a re-analysis of the deposited data

How the results depend on the processing

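The CISH difference kept its sign under all 11 alternatives run for it, from 0.99 without PBS replicate 1 to 1.33 without PBS replicate 2. SOCS2 (0.35 to 1.11) and JAK2 (−1.35 to −0.25) also kept their sign under 11, but JAK2 overlapped between the groups with the median over probe sets. STAT5A kept its sign under 10, from 0.45 without rhLH replicate 3 to 1.23 without rhLH replicate 4. The sign of SOCS1, SOCS3 and STAT3 turned when 1 PBS array was left out, that of PRLR without rhLH replicate 3, and that of STAT5B under 3 of 11. Of the probe sets described, 3 lay above both PBS arrays (4 to 7 when an array was left out: 6 without either PBS array, 7 without rhLH replicate 3 and 4 without rhLH replicate 4) and 5 lay below (5 to 10: 10 without PBS replicate 2 or rhLH replicate 4). The count below was 3 with quantile normalization, with centring and with a filter at the 70th percentile. Without any of these changes, 14.4% of all kept probe sets lay above and 17.7% below. These shares were not counted for the alternatives, so the changes in the counts have no background to be read against. Centring moved the median of all kept genes to 0.13, against 0.02. Limma made 0 calls in all but 1 setting: without PBS replicate 2 it made 8027, 18 of them among the other pathway genes, with PBS replicate 1 as the sole control and assumed to vary like the rhLH arrays. The range over single arrays left out was therefore 0 to 8027 and 0 to 18. The 2-fold rule gave 109 probe sets higher and 155 lower. The excess turned to the higher side with quantile normalization (149 and 123) and with centring (137 and 130). The counts were 65 and 58 with a pseudocount of 64, 378 and 798 with no filter, and 42 and 19 at the 70th percentile. Leaving out single arrays gave 189 to 3924 higher and 312 to 4631 lower, the highest counts without PBS replicate 2. The medians of the other pathway lists changed sign under at least 1 alternative, except that of the prolactin-related luteal genes (0.43 to 1.16). Fewer arrays make both this rule and separation of the groups easier to meet. No paired analysis was possible because the groups share no replicate numbers.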
